A study of Saccharomyces cerevisiae with 4 samples.

Results

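The genes described here encode the core machinery of iron-sulfur cluster assembly in yeast mitochondria. They are the 10 genes ISU1, ISU2, NFS1, YFH1, SSQ1, JAC1, YAH1, ARH1, GRX5 and ATM1, taken by symbol from the probe annotation among 4072 named genes tested. Each had 1 probe, annotated under its current symbol, and was measured on all 4 arrays. Transcripts were compared between a transgenic Saccharomyces cerevisiae strain carrying pAG305GPD-AAE13 and a control strain carrying pAG305GPD-ccdB. AAE13 is a plant malonyl-CoA synthetase, placed here behind the strong GPD promoter of an integrating LEU2-marked vector, and ccdB is the cassette of the empty vector. Cultures of both strains grew at 30 °C in SD drop-out medium, were given malonate to 0.2 mM at an OD600 of 0.1, and were collected during mid-log growth. Each of the 4 two-colour arrays set 1 AAE13 culture against 1 ccdB culture, with the dyes swapped between arrays: AAE13 was in Cy5 on arrays 1 and 3 but in Cy3 on arrays 2 and 4. The parent strain and the number of transformants behind each strain were not stated in the labels, and no probe for the AAE13 transcript was analysed here.

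Iron-sulfur clusters are cofactors of aconitase, succinate dehydrogenase, the Rieske protein of the respiratory chain and several enzymes of amino acid synthesis. In mitochondria, the desulfurase Nfs1 takes sulfur from cysteine, and sulfur and iron are joined on the scaffold proteins Isu1 and Isu2 with the help of frataxin, Yfh1. Electrons reach the scaffold from NADPH through the reductase Arh1 and the ferredoxin Yah1. The Hsp70 chaperone Ssq1 and its J-protein partner Jac1 then release the new cluster to the glutaredoxin Grx5, from which it is passed to target proteins. The ABC transporter Atm1 of the inner membrane exports a sulfur-containing product that the cytosol needs to build its own clusters. The same product informs the iron-responsive transcription factor Aft1, which turns on the genes of iron uptake when clusters or iron are short.

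Values are log2 ratios read as AAE13 over ccdB, and the median of each array was set to 0, the level of the typical probe. That direction is called likely only because the series title and design text put the transgenic strain first, and no source used here states it. The sample titles differ from these: AAE13 comes first for arrays 1 and 3, but ccdB comes first for arrays 2 and 4. In each title the strain in Cy5 is thus first, the order of a Cy5 over Cy3 ratio. Under that reading limma called 0 genes, as given below. The arrays of opposite dye orientation correlated at a mean r of 0.576 and those of the same orientation at 0.693. Single pairs overlapped, from 0.43 (arrays 2 and 3) to 0.70 (arrays 3 and 4) for opposite orientation. For the same orientation they were 0.64 (arrays 1 and 3) and 0.74 (arrays 2 and 4). Because the mean for opposite orientation was above 0, the ratios were read as turned one way on every array. A dye effect shared by ratios that were never turned would give the same pattern. If the ratios were turned to ccdB over AAE13 instead, every rise below would be a fall of the same size, every fall a rise, and each rank would count from the other end. Fold sizes assume that the log base is 2. Before centring, the median over all genes was 0.58 on this scale. Each ratio averages over a culture, so a change in every cell and a change in part of the cells cannot be told apart. The labels do not say how separately the cultures were grown, so p-values measure the spread between these arrays. The arrays limit the precision by their number, and signal over background is unknown.

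Among the members, 4 of 10 rose in the AAE13 strain, none fell and 6 did not pass (limma adjusted p under 0.05). The 4 were the ferredoxin gene YAH1, its reductase gene ARH1, the scaffold gene ISU2 and the frataxin gene YFH1. Over all genes, 24.8% passed in either direction, 13.0% higher and 11.8% lower. The members' median log2 ratio was 0.59, against -0.02 over all genes, and the median on arrays 1 to 4 was 0.44, 0.82, 0.57 and 0.85. The mean ratios ran from -0.40 for ATM1 to 1.87 for YAH1, with 7 means above 0 and 3 below. The 4 members that rose were also those with 1 sign on every array, a property of 46.4% of all genes. With the arrays not centred, 6 members passed, all of them higher, and the calls over all genes went from 529 higher and 482 lower to 744 higher and 55 lower.

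**Figure D1:**
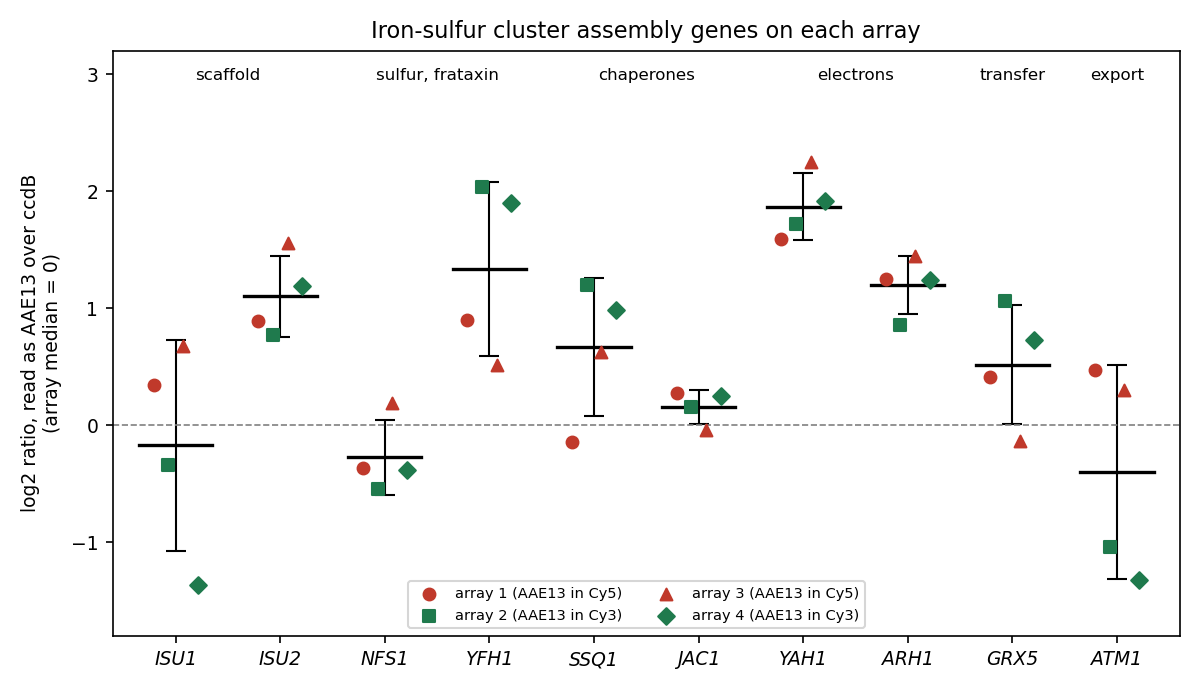
Log2 ratio of each member (y axis, read as AAE13 over ccdB, array median at 0), grouped by role on the x axis, with 1 point per array, a bar at the mean and error lines of 1 SD (n = 4). All points of YAH1, ARH1, ISU2 and YFH1 lie above 0, and those of ISU1 and ATM1 lie above 0 on arrays 1 and 3 and below 0 on arrays 2 and 4.

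The genes of the electron supply had the most even increases. YAH1 encodes the mitochondrial ferredoxin, which also serves haem A synthesis, and its log2 ratios on arrays 1 to 4 were 1.59, 1.72, 2.25 and 1.92. All 4 arrays put it well above the typical gene, with a spread narrower than the distance to 0. It rose 3.65-fold, at 1.87 ± 0.29 (SD, n = 4; limma adjusted p = 0.000763), which placed it at percentile 98.4 of all mean ratios. ARH1 encodes the ferredoxin reductase that passes electrons to Yah1, and had 1.25, 0.86, 1.45 and 1.24. It too was high on every array and rose 2.30-fold, at 1.20 ± 0.25 (SD, n = 4; limma adjusted p = 0.00318). The call of ARH1 was lost without variance moderation (adjusted p = 0.0536), while YAH1 passed at 0.0442 there.

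YAH1 was above ARH1 on 4 of 4 arrays. The difference between these ratios within an array, which centring does not touch, was 0.34, 0.86, 0.80 and 0.68, or 0.67 ± 0.23 (SD, n = 4). An exact two-sided sign-flip test over the arrays gave p = 0.125, the smallest p that this test can give with 4 arrays. The test therefore cannot pass 0.05 here, and the differences between members are given as a description. Pairs of members with a linked role were set against each other in this way for 4 pairs. Their sign-flip p-values adjusted over the 4 pairs were 0.167 at the lowest. The pairs were not among the planned comparisons, and in each the member with the higher mean is given first.

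Of the scaffold genes, ISU2 rose and ISU1 did not pass. On arrays 1 to 4 the log2 ratios of ISU2 were 0.89, 0.77, 1.55 and 1.19, above 0 throughout and highest on array 3. It rose 2.14-fold, at 1.10 ± 0.35 (SD, n = 4; limma adjusted p = 0.00641), and lost its call without variance moderation (adjusted p = 0.0756). ISU1, which encodes a close copy of the same protein, had 0.34, -0.34, 0.68 and -1.37. Its arrays lay on both sides of 0, at -0.17 ± 0.90 (SD, n = 4; limma adjusted p = 0.723), and its SD was at percentile 95.2 of all genes. ISU2 was above ISU1 on 4 of 4 arrays, by 0.55, 1.12, 0.87 and 2.55, or 1.27 ± 0.89 (SD, n = 4; exact sign-flip p = 0.125). Because the genes are similar in sequence, labelled cDNA of one may bind the probe of the other. Such cross-hybridisation was not tested.

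Of the genes at the sulfur and iron entry, the frataxin gene rose and the desulfurase gene did not pass. YFH1, whose human counterpart is the gene altered in Friedreich ataxia, had 0.90, 2.03, 0.51 and 1.90 on arrays 1 to 4. It was above 0 on every array but clearly higher on arrays 2 and 4, where AAE13 was in Cy3. It rose 2.52-fold, at 1.34 ± 0.75 (SD, n = 4; limma adjusted p = 0.0139), and did not pass without array 4 (adjusted p = 0.0746) or without variance moderation (0.143). NFS1, the cysteine desulfurase gene, had -0.37, -0.55, 0.19 and -0.38. It was slightly below 0 on all arrays but array 3, and its mean of -0.28 ± 0.32 (SD, n = 4; limma adjusted p = 0.303) did not pass. YFH1 was above NFS1 on 4 of 4 arrays, by 1.61 ± 1.03 (SD, n = 4; exact sign-flip p = 0.125). NFS1 lies next to LEU2, the marker gene of the vector in both strains, which had -1.60, -3.35, 0.62 and -0.83. The values of these neighbours were both highest on array 3 and lowest on array 2, while LEU2 had an SD of 1.65 against 0.32 for NFS1. That order is not particular to this site. The members ISU2 and ARH1, which lie elsewhere in the genome, were also highest on array 3 and lowest on array 2, and the remaining members were not. A part of the integration site in the ratio of NFS1 was not tested.

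The chaperone genes and GRX5 did not pass. SSQ1, the Hsp70 dedicated to cluster release, had -0.14, 1.20, 0.63 and 0.98 on arrays 1 to 4. It was below 0 on array 1 alone, and its mean was 0.67 ± 0.59 (SD, n = 4; limma adjusted p = 0.0802). It passed without array 1 (adjusted p = 0.0346), with a dye term (0.0422) and with the arrays not centred (0.021). JAC1, its J-protein partner, had 0.27, 0.15, -0.04 and 0.25, the narrowest spread of the 10 members, at 0.16 ± 0.14 (SD, n = 4; limma adjusted p = 0.502). SSQ1 was above JAC1 on 3 of 4 arrays, by 0.51 ± 0.64 (SD, n = 4; exact sign-flip p = 0.25). GRX5, the glutaredoxin that receives the released cluster, had 0.41, 1.07, -0.13 and 0.72. It was below 0 only on array 3, at 0.52 ± 0.51 (SD, n = 4; limma adjusted p = 0.126), and passed without that array (adjusted p = 0.0436) and with the arrays not centred (0.0459).

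For the exporter gene ATM1, the log2 ratios on arrays 1 to 4 were 0.47, -1.04, 0.30 and -1.32. It was above 0 on both arrays with AAE13 in Cy5 and below 0 on both with AAE13 in Cy3. Its mean of -0.40 ± 0.91 (SD, n = 4; limma adjusted p = 0.401) was the lowest of the members and did not pass. The means of ISU1, NFS1 and ATM1 were below 0 only with centred arrays, and were 0.44, 0.33 and 0.21 without centring.

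The difference between the dye orientations varied in size and sign among the members. YAH1, ARH1, ISU2, JAC1 and NFS1 differed by at most 0.38 between the arrays with AAE13 in Cy5 and those with AAE13 in Cy3. ATM1 and ISU1 were higher with AAE13 in Cy5, by 1.57 and 1.37 on the log2 scale. YFH1, SSQ1 and GRX5 went the other way, with differences of -1.26, -0.85 and -0.75. A limma fit with a dye term called this difference for 0 of 4072 genes, 0% of those tested, although 721 genes had an unadjusted p under 0.05. For AAE13 over ccdB, 5 members passed in that fit, all of them higher. For the dye term itself no member passed (adjusted p from 0.22 for ATM1 and YFH1 to 0.891 for YAH1). The unadjusted p was 0.00159 for ATM1, 0.00493 for YFH1 and 0.0222 for ISU1. With the arrays not centred, the same fit called 151 genes, among them 1 member, YFH1, at a difference of -2.22 (limma adjusted p = 0.0368). The median difference over all genes was then -0.99. ATM1 and ISU1 did not pass there (adjusted p = 0.47 and 0.63). Within each orientation, YFH1 averaged 0.71 on the Cy5 arrays and 1.97 on the Cy3 arrays, so its ratio was above 0 in both. ATM1 averaged 0.39 and -1.18, and ISU1 averaged 0.51 and -0.85, so their directions turned with the orientation. The part of labelling in these ratios was not tested beyond this fit.

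**Figure D2:**
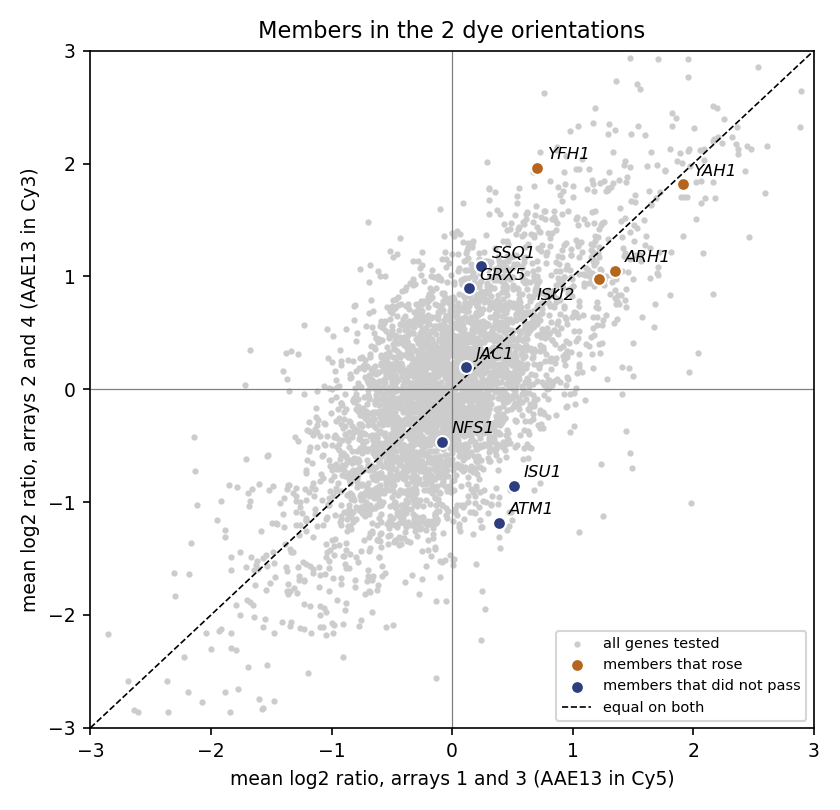
Mean log2 ratio over arrays 1 and 3, with AAE13 in Cy5 (x axis), against the mean over arrays 2 and 4, with AAE13 in Cy3 (y axis), for the members (coloured) and all genes tested (grey, cropped to the axes). YAH1, ARH1 and ISU2 lie near the dashed line of equal values, YFH1, SSQ1 and GRX5 lie above it, and ISU1 and ATM1 lie below it, with x above 0 and y below 0.

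Further genes of mitochondrial cluster assembly and iron delivery were looked at for the steps before and after the core machinery. Of 13 such genes, 10 had a probe named here, of which 4 rose, 1 fell and 5 did not pass. That is 50% called, against 24.8% of all genes, and the median log2 ratio was 0.42. The largest rise was that of GGC1, the mitochondrial GTP/GDP carrier whose loss disturbs mitochondrial iron, with 2.27, 2.12, 2.94 and 2.18 on arrays 1 to 4. These were high on every array, and GGC1 rose 5.21-fold, at 2.38 ± 0.38 (SD, n = 4; limma adjusted p = 0.000448). ISA1, which helps to form the larger clusters that aconitase needs, had 2.29, 3.09, 1.35 and 1.81. It rose 4.39-fold, at 2.14 ± 0.74 (SD, n = 4; limma adjusted p = 0.00229). Its partners ISA2 and IBA57 had means of 0.43 ± 0.69 and 0.40 ± 0.34 (SD, n = 4) and did not pass (limma adjusted p = 0.263 and 0.153).

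NFU1, a late-acting cluster transfer protein, was at 0.74 ± 0.46 and rose (SD, n = 4; limma adjusted p = 0.04). ACP1, the mitochondrial acyl carrier protein that also belongs to the Nfs1 complex, was at 0.63 ± 0.17 and rose (SD, n = 4; limma adjusted p = 0.0292). The call of each was lost without array 1, 2 or 4, at adjusted p from 0.0762 to 0.13. MRS3, a carrier that brings iron into mitochondria, had -0.51, -0.89, -0.38 and -0.99 and fell 1.62-fold, at -0.69 ± 0.29 (SD, n = 4; limma adjusted p = 0.0292). It was below 0 on every array, but its call was lost without array 1, 2 or 4 (adjusted p from 0.0715 to 0.119) and with the arrays not centred (0.898). Its close copy MRS4, itself a gene of the iron regulon, was at 0.26 ± 0.23 (SD, n = 4; limma adjusted p = 0.303). MGE1, the nucleotide exchange factor of Ssq1, was at -0.14 ± 0.56 and the carrier RIM2 at -0.10 ± 0.48 (SD, n = 4), and neither passed (limma adjusted p = 0.698 and 0.75). ISD11, BOL1 and BOL3 were not analysed here.

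The users of the clusters in mitochondria were represented by 7 genes tested. Of these, 5 rose and 2 did not pass (71.4% called, against 24.8% of all genes), with a median log2 ratio of 1.06. ACO1, aconitase, had 3.14, 3.91, 3.01 and 2.90 on arrays 1 to 4, all above the highest value of any member. SDH2, the iron-sulfur subunit of succinate dehydrogenase, had 1.01, 2.71, 1.36 and 2.27, and rose 3.58-fold at 1.84 ± 0.79 (SD, n = 4; limma adjusted p = 0.00483). Like YFH1, it was higher on arrays 2 and 4. RIP1, the Rieske protein of the cytochrome bc1 complex, rose less, at 0.93 ± 0.40 (SD, n = 4; limma adjusted p = 0.0147), and lost its call without array 1 (adjusted p = 0.06). ILV3, the dihydroxyacid dehydratase of branched-chain amino acid synthesis, was at 2.60 ± 1.00 and LIP5, lipoate synthase, at 1.06 ± 0.52, and both rose (SD, n = 4; limma adjusted p = 0.00255 and 0.0145). LIP5 did not pass without array 4 (adjusted p = 0.0718). LYS4, homoaconitase, had -0.87, -1.14, 1.56 and 0.44, with arrays on both sides of 0, and did not pass (limma adjusted p = 0.997). BIO2, biotin synthase, was below 0 on 4 of 4 arrays at -0.79 ± 0.77 (SD, n = 4; limma adjusted p = 0.0802), and passed without array 3 (0.0451). Within each array, the median of the members lay below that of these proteins, by 0.63 ± 0.23 (SD, n = 4) on average. That comparison describes the lists and has no test.

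Cytosolic and nuclear genes of the same cofactor were looked at as well. Of 7 genes of the cytosolic assembly machinery tested, 1 rose and 6 did not pass (14.3% called, against 24.8% of all genes), with a median log2 ratio of 0.00. The one that rose was CFD1, a cytosolic scaffold subunit, at 0.75 ± 0.32 (SD, n = 4; limma adjusted p = 0.0248), and its call was lost without array 1, 2 or 4 (adjusted p from 0.0523 to 0.0989). Of 13 tested genes for cytosolic and nuclear iron-sulfur proteins, 3 rose and 1 fell (30.8% called), with a median of -0.07. Those that rose were metabolic enzymes. MET5, a sulfite reductase subunit, was the steadiest at 2.25 ± 0.25 (SD, n = 4; limma adjusted p = 0.00035). LEU1, isopropylmalate isomerase, had 1.71, 1.50, 5.85 and 4.50 on arrays 1 to 4, far higher on arrays 3 and 4. It averaged 3.39 ± 2.14 (SD, n = 4; limma adjusted p = 0.0126), with its call lost without array 4 (adjusted p = 0.072). GLT1, glutamate synthase, was at 0.84 ± 0.55 (SD, n = 4; limma adjusted p = 0.0373), a call lost without array 1 or 2 (adjusted p = 0.127 and 0.101) and with a dye term (0.058). The one that fell was CHL1, a DNA helicase gene, at -0.62 ± 0.19 (SD, n = 4; limma adjusted p = 0.0322), which lost its call without any single array (adjusted p from 0.0526 to 0.115) and with the arrays not centred (0.983).

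The iron regulon, the Aft1 targets of iron uptake and iron sparing, was at the other end of the scale. Of 26 of its genes tested, 12 fell and none rose, with a median log2 ratio of -0.74. Those called, all lower, made up 46.2% of the list, against 11.8% of all genes called lower. With the arrays not centred, 1 of these genes was called higher and 6 lower, and the median was -0.14. FET3, the multicopper oxidase of high-affinity iron uptake, had -2.64, -2.81, -2.64 and -2.86 on arrays 1 to 4, a narrower spread than that of any member. It fell 6.67-fold, at -2.74 ± 0.12 (SD, n = 4; limma adjusted p = 8.56e-05). The siderophore transporter gene SIT1 was at -4.30 ± 0.45 and ARN2, of the same family, at -2.10 ± 0.30 (SD, n = 4; limma adjusted p = 3.91e-05 and 0.000539). TIS11, also known as CTH2, encodes a protein that promotes the decay of mRNAs for iron-using proteins in iron shortage. It was at -2.94 ± 0.24 (SD, n = 4; limma adjusted p = 8.56e-05). FET3, SIT1, ARN2 and TIS11 had the 4 largest falls of the list. The regulon did not move as one: 14 of its 26 genes did not pass, and 5 means were above 0, the highest at 0.59. On every array the median of the 10 members was above that of the regulon, by 0.91, 1.93, 1.10 and 2.00. This gap does not depend on centring, but it describes lists chosen with results of these data known and has no test.

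**Figure D3:**
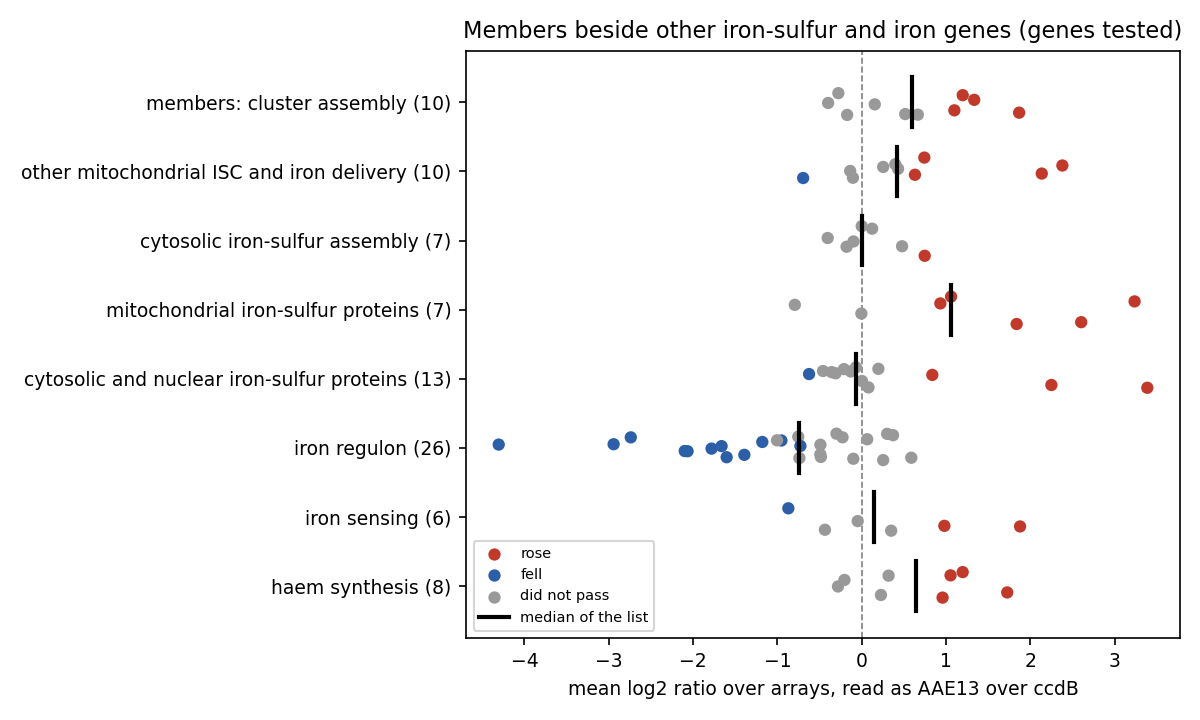
Mean log2 ratio over the arrays (x axis, read as AAE13 over ccdB) of each gene tested, by list (y axis, with the number of genes tested; ISC stands for iron-sulfur cluster). Colours give the limma call at an adjusted p under 0.05, vertical bars the median of a list. The members' median is at 0.59, that of the mitochondrial iron-sulfur proteins at 1.06 and that of the iron regulon at -0.74, and MRS4 is shown in each of the lists that hold it.

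Genes that sense iron or handle its excess were tested for 6 of 8 listed, of which 2 rose, 1 fell and 3 did not pass. That is 50% called, against 24.8% of all genes. GRX4, a cytosolic glutaredoxin that restrains Aft1 when iron is ample, had 1.56, 2.38, 1.75 and 1.83 on arrays 1 to 4. It was high on every array and rose 3.68-fold, at 1.88 ± 0.35 (SD, n = 4; limma adjusted p = 0.000929), close to the value of YAH1. GRX3, its copy with an overlapping role, named after its values were seen, had -0.84, -0.34, -0.30 and -0.27. It was below 0 on every array, at -0.44 ± 0.27 (SD, n = 4), and did not pass (limma adjusted p = 0.108). Without centring, its mean was 0.17. CCC1, which moves iron into the vacuole, rose at 0.98 ± 0.41 (SD, n = 4; limma adjusted p = 0.0127), a call lost without array 4 (adjusted p = 0.0619). AFT1 fell at -0.87 ± 0.51 (SD, n = 4; limma adjusted p = 0.0285). That call was lost without array 1, 3 or 4 (adjusted p from 0.0532 to 0.109) and with the arrays not centred (0.677). AFT2, a related factor, was at 0.35 ± 0.23 and YAP5, the activator of CCC1, at -0.05 ± 0.21 (SD, n = 4), and neither passed (limma adjusted p = 0.166 and 0.854).

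The calls of the members were compared across 14 other settings. Under the 13 that keep the direction of the ratios, YAH1 passed in 13, ARH1 and ISU2 in 12 each and YFH1 in 11. SSQ1 passed in 3 of them and GRX5 in 2, and ISU1, NFS1, JAC1 and ATM1 passed in none. If the ratios are instead read as Cy5 over Cy3, limma called 0 members, 2 having an unadjusted p under 0.05, and 0 genes in all. The ratios of YAH1, ARH1 and ISU2 then averaged out across the dye orientations, and the directions given above would not apply.

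**Figure D4:**
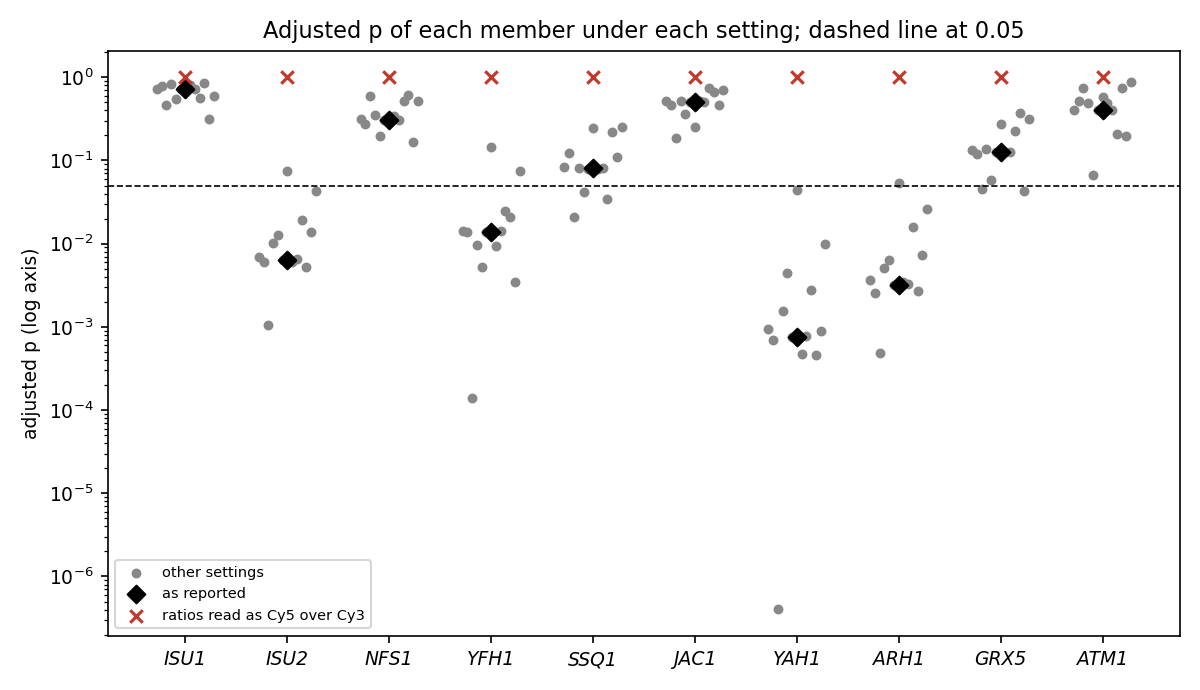
Adjusted p (y axis, log scale) of each member (x axis) as reported (black diamonds), under the 13 other settings that keep the direction (grey, including 1 without variance moderation) and with the ratios read as Cy5 over Cy3 (red crosses). YAH1 lies under the dashed line at 0.05 in all settings but the last, and ISU1, NFS1, JAC1 and ATM1 lie above it throughout.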

How the data were processed

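Labelled cDNA was made from total RNA with an oligo-dT primer and indirect dye labelling, per the labels' protocols. The authors deposited log2 ratios, 1 value per probe and array, for 6256 probes with 4 missing values. The log base was inferred from the values, and no source used here gives the direction, normalization or software. Medians of arrays 1 to 4 in the deposited table were 0.431, 0.765, -0.174 and 1.41, and were subtracted. Of the probes, 4075 carry 1 gene name in the platform annotation. The 2181 probes without a name were not tested. Older symbols were updated through a table of assembly R64 (125 updated, 8 without a match), and an older symbol was kept where the current one had its own probe. Probes of a gene were averaged.

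A mean ratio of 0 was tested in limma 3.58.1 under R 4.3.3 (lmFit, then eBayes; two-sided) over 4072 genes measured on at least 3 arrays, with Benjamini-Hochberg adjustment at 0.05. The script was tested on simulated data. Python 3.11.15 with matplotlib 3.10.9 drew the figures. The members, the 8 lists and the settings were chosen with earlier results of these data known. Named are all members, all other mitochondrial assembly genes, a fixed set of iron-sulfur proteins and iron genes, and the 4 largest called changes of each other list. Added to these after their values were seen are LEU2, GRX3 and the genes of the closing observations. Sequences were not used here.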

Additional observations from a re-analysis of the deposited data

How the results depend on the processing

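Settings other than the direction kept the sign of each called member and each called gene named from the other lists. With the ratios read as Cy5 over Cy3, limma called 0 genes (154 at an unadjusted p under 0.05), 0 members and 0 genes of the other lists, and the members' median was 0.0847. Of these called genes, 16 then changed sign: YFH1 was at -0.63, ACP1 at -0.12, ISA1 at -0.31, NFU1 at -0.32, ACO1 at -0.16, SDH2 at -0.65, LIP5 at -0.33, CCC1 at -0.25, CFD1 at -0.25, GRX4 at -0.23 and HEM3 at -0.25, against 0.24 for MRS3, 0.10 for FET3, 0.0916 for TIS11, 0.15 for CHL1 and 0.0572 for ARN2. This reading takes the difference between the dye orientations as the effect.

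Without variance moderation, 143 genes, 1 member and 10 of the 76 genes of the other lists passed, against 1011, 4 and 34. At a threshold of 0.01, 390 genes, 3 members and 19 genes of the other lists passed. Leaving out 1 array gave 427 to 1045 genes, 3 to 5 members and 20 to 35 genes of the other lists, lowest without array 4, with the members' median between 0.41 and 0.74. Without array 1, 621 genes passed. Without centring, the members' median was 1.20. The dye term, refitted without centring as an alternative chosen after seeing the data, then called 151 genes, against 0. The cause of these differences was not tested. The fit is itself paired, because each ratio is already the paired value of 1 AAE13 and 1 ccdB culture. No unpaired analysis was made. Depth cannot be judged, since no spot intensities were analysed here.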

Other observations

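Haem synthesis is the other large use of iron in mitochondria. All of its 8 listed genes were tested, and 4 of them rose and 4 did not pass. That is 50% called, against 24.8% of all genes, and the median log2 ratio was 0.64. HEM3, porphobilinogen deaminase, had 1.75, 2.09, 1.21 and 1.86 on arrays 1 to 4, high on every array, at 1.73 ± 0.37 (SD, n = 4; limma adjusted p = 0.00144). HEM1, which catalyses the first step, was at 1.05 ± 0.21 and HEM2, the second enzyme, at 0.96 ± 0.30 (SD, n = 4; limma adjusted p = 0.00479 and 0.00949). HEM13, coproporphyrinogen oxidase, was at 1.20 ± 0.77 (SD, n = 4; limma adjusted p = 0.0225). HEM2 and HEM13 did not pass without array 4 (adjusted p = 0.0569 and 0.105). HEM15, ferrochelatase, which inserts the iron, was at 0.23 ± 0.11 (SD, n = 4) and did not pass (limma adjusted p = 0.317).

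The genes next to the members in gene order were looked up after the members' values were seen. Of 20 such places, 14 held a gene tested, of which 4 rose, 1 fell and 9 did not pass. The share called was 35.7%, against 24.8% of all genes, and this difference was not tested. ARH1 lies between BCS1, an assembly factor of the bc1 complex, at 1.01 ± 0.57, and ATP17, an ATP synthase subunit gene, at 1.31 ± 0.49 (SD, n = 4; limma adjusted p = 0.0205 and 0.00573), and both of these rose. YAH1 lies between VIK1, which fell at -0.65 ± 0.30 (SD, n = 4; limma adjusted p = 0.0368), and ATG41, at 0.74 ± 0.56 (SD, n = 4; limma adjusted p = 0.054). ISU1 did not pass, while its neighbour ODC1, a mitochondrial oxodicarboxylate carrier gene, rose at 1.36 ± 0.28 (SD, n = 4; limma adjusted p = 0.00229). GRX5 did not pass, while its neighbour PDR12, a weak acid exporter gene, rose at 1.38 ± 0.72 (SD, n = 4; limma adjusted p = 0.0117).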
